A study of Mus musculus with 6 samples.

Results

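The BCL2 family was followed in cultures of mouse epidermal keratinocytes, which build the outermost layer of skin. The 10 members were taken by gene symbol from the deposited count table, all were found among its 23420 genes, and 9 passed the filter on low counts. They are Bcl2, Bcl2l1 (BCL-XL), Mcl1, Bax, Bak1, Bid, Bbc3 (PUMA), Pmaip1 (NOXA), Bcl2l11 (BIM) and Bik, and Bik was the member that did not pass. The study compared 3 libraries labelled WT (K14CreERT2-;Gata6 fl/fl) with 3 labelled iKO (K14CreERT2+;Gata6 fl/fl). Both groups therefore carried loxP-flanked Gata6, which encodes a GATA family transcription factor. The iKO cells also carried CreERT2, a Cre recombinase that tamoxifen activates, under the keratin 14 promoter, which is active in basal keratinocytes. All cells were grown in low-calcium medium, used at passage 8 to 10 and given 1 µM 4-hydroxytamoxifen for 6 hours. The labels give neither the age nor the strain of the mice, and no label states if the libraries within a group come from different animals or cultures. The p-values thus measure how these libraries vary, which may be technical.

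Proteins of this family decide whether mitochondria release cytochrome c, the step that commits a cell to apoptosis. BCL2, BCL-XL and MCL1 hold the outer membrane intact, and BAX and BAK permeabilise it. The BH3-only proteins BID, PUMA, NOXA, BIM and BIK act on either or both kinds. PUMA and NOXA are classical p53 target genes. BCL-XL and MCL1 are the survival proteins best known from epidermis, where basal cells must persist and differentiated cells are lost. Much of the family's control acts on the proteins, which these RNA libraries do not measure.

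The BH3 motif gives the BH3-only proteins their name and occurs across the family, so the coding stretch that holds it is shown for 9 members. The search was for a leucine, any 3 residues, a glycine or alanine, an aspartate, and then an aspartate, glutamate or glycine. Pmaip1 is not shown, because its coding sequence held no match to the whole pattern. This does not mean that it lacks a BH3 motif, since the pattern also restricts the residue after the aspartate. Each stretch has 48 bases, 16 codons, from the mm10 transcript of the gene, 5′ to 3′, and capitals mark the codons of the conserved leucine and of the glycine (or alanine) and aspartate that follow it.
Bcl2 (chr1:106712569-106712616, minus strand, exon 1 of 2): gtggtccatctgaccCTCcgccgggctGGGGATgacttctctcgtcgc
Bcl2l1 (chr2:152829691-152829738, minus strand, exon 2 of 3): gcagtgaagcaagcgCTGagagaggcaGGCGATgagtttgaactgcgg
Mcl1 (chr3:95659421-95659468, plus strand, exon 1 of 3): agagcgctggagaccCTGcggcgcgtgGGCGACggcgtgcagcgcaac
Bax (chr7:45465991-45466038, minus strand, exon 3 of 6): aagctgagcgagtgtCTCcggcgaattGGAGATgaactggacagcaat
Bak1 (chr17:27022525-27022572, minus strand, exon 4 of 6): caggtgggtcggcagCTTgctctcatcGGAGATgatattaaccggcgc
Bid (chr6:120897283-120897330, minus strand, exon 4 of 6): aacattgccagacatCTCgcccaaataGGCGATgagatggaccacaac
Bbc3 (chr7:16313758-16313805, plus strand, exon 3 of 4): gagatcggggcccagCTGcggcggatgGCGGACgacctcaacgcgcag
Bcl2l11 (chr2:128147135-128147182, plus strand, exon 3 of 4): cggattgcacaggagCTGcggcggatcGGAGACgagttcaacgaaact
Bik (chr15:83543069-83543116, plus strand, exon 3 of 5): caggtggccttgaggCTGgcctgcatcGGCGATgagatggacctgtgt
In 8 of these 9 genes the codon before the aspartate codes for glycine, and in Bbc3 it codes for alanine. Each of the 9 coding sequences held the motif once, and in each case it lay within a single exon.

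Depth ranged from 21943467 to 79055307 gene counts in the libraries labelled WT and from 32751896 to 83337263 in those labelled iKO. The targeted gene went against its label: Gata6 measured 0.519 to 5.37 normalised CPM (gene counts relative to the scaled size of each library) in the libraries labelled WT and 14.2 to 21.02 in those labelled iKO. Its log2 fold change was 2.60 (SE 0.72, adjusted p = 0.180 in edgeR and 0.00134 in DESeq2). Reads from exons outside the deleted part are counted too, and the cause of the higher values under the iKO label was not tested. Directions below are therefore given by label, iKO relative to WT. Xist, expressed from an inactive X chromosome, measured 604.6 to 889 CPM under the WT label and at most 2.62 under the iKO label, so the sex of the cells and the genotype label cannot be told apart. All 7 basal keratinocyte markers were counted in every library and summed to 31283 to 43860 CPM under the WT label and 32793 to 48085 CPM under the iKO label, with Krt5 at 14719 to 23621 CPM over all libraries. Of that list Trp63 did not overlap between groups (307 to 331 against 191 to 205 CPM), and Krt15 averaged 12.7 and 5.23 CPM with overlap. The 4 suprabasal markers in the table summed to 54.1 to 101 against 72.6 to 153 CPM. Of these Krt1 (3.13 to 3.56 against 0.400 to 2.53 CPM) and Krt10 (12.3 to 23.6 against 4.88 to 9.89 CPM) did not overlap, while Ivl averaged 50.7 and 104 CPM with overlap. The part of these differences in the values of the family was not tested. Of the 7 fibroblast markers Dcn and Lum were without a count throughout, and the list summed to 1.01 to 3.12 CPM against 1.06 to 4.22 CPM. The 6 immune markers summed to at most 0.199 and 0.156 CPM, the 6 melanocyte markers to 6.08 to 11.9 against 5.69 to 8.45 CPM, the 3 endothelial markers to 9.31 to 19.0 against 7.29 to 8.88 CPM, and the 3 Merkel cell markers to 0.443 to 2.19 against 1.16 to 5.77 CPM. Of single markers of these types, Cd207, Dct and Atoh1 had no count in any library, but others were counted. The melanocyte marker Tyr measured 1.48 to 3.48 against 2.01 to 3.92 CPM. The Merkel cell marker Sox2 measured 0.317 to 0.830 against 1.00 to 5.60 CPM, without overlap, and Krt20 averaged 0.807 and 0.139 CPM with overlap.

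No member passed the test between the groups. In edgeR's quasi-likelihood test with Benjamini-Hochberg adjustment over all 12672 tested genes, 0 of the 9 tested members reached an adjusted p of 0.05, where 0.339% of all tested genes did. DESeq2 and limma-voom also called 0 at an adjusted p of 0.05, where they called 5.57% and 0.466% of all genes they tested. Each of these tools had 1 member at an unadjusted p under 0.05, but the matching share over all genes was not counted for them. In edgeR 1 member, Bcl2, had an unadjusted p under 0.05, against 15.0% of all tested genes. The log2 fold changes of the members ran from -0.70 (Bcl2) to 0.31 (Pmaip1), 7 of them positive and 2 negative. Their median was 0.12, beside 0.0091 over all tested genes. Bcl2 was also the 1 of 9 members whose groups did not overlap, against 21.9% of all tested genes. In bulk RNA, fewer cells with a transcript and less of it per cell cannot be told apart.

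**Figure D1:**
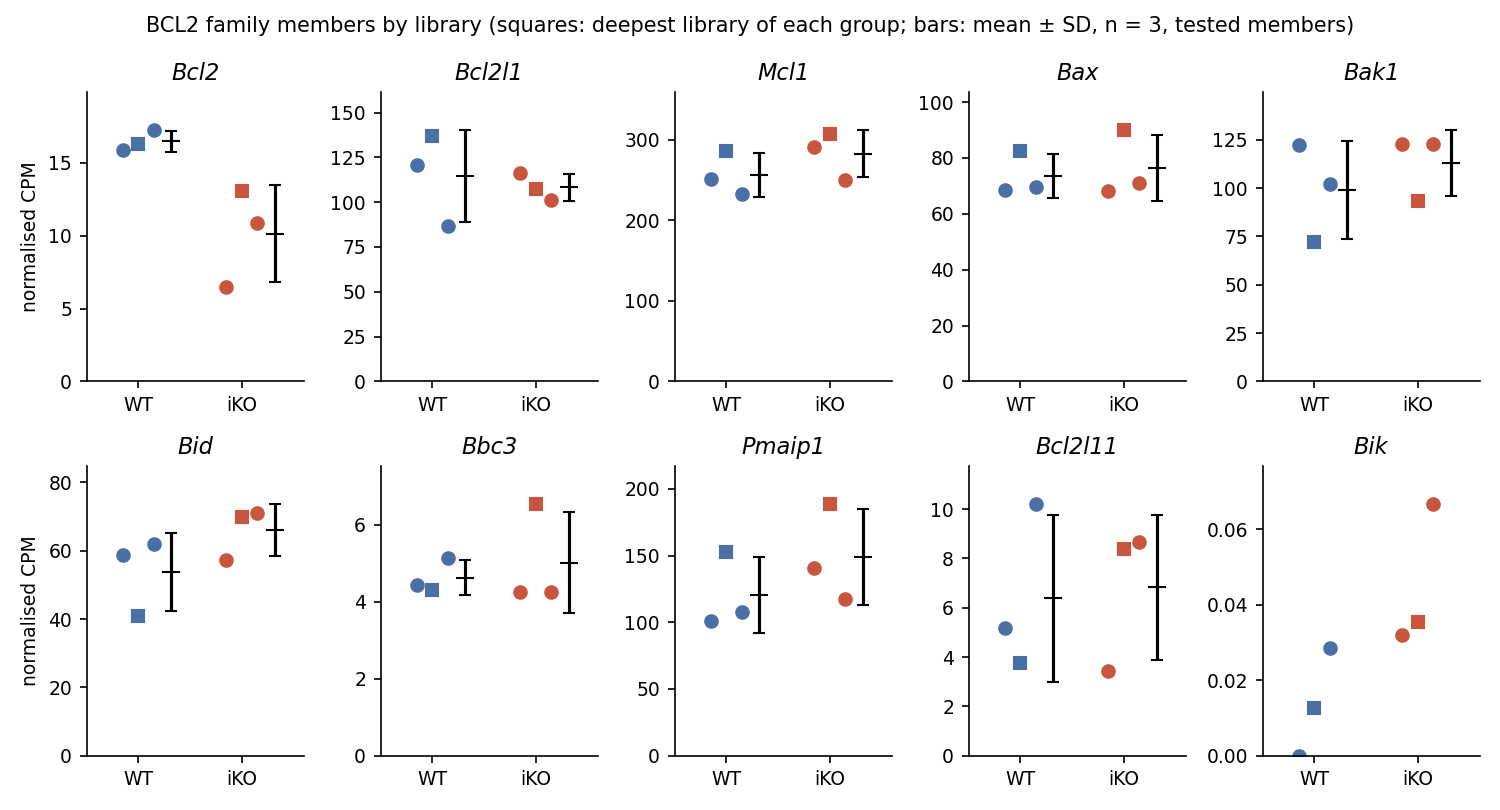
Normalised CPM of each member (vertical axis, from 0) in the 3 libraries labelled WT (blue) and the 3 labelled iKO (red), with squares for the deepest library of each group and bars for the mean ± SD of tested members. Only the Bcl2 panel, among tested members, shows groups that do not overlap, 15.9 to 17.3 against 6.49 to 13.1 CPM.

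Among the survival genes, Bcl2, the founder of the family, had lower values under the iKO label than under the WT label. In WT 2, 3 and 4 it measured 15.9, 16.3 and 17.3 CPM. In iKO 3, 4 and 33 it measured 6.49, 10.8 and 13.1 CPM, where 33 is the number in the name of a column that matches no title. All 3 libraries labelled WT lay within a narrow band and above all 3 labelled iKO, which were spread more widely, with iKO 3 lowest. The group values were 16.5 ± 0.716 and 10.1 ± 3.34 CPM (SD, n = 3). The log2 fold change was -0.70 (SE 0.25, approximate 95% interval -1.30 to -0.10). With adjustment over all genes the difference did not pass, neither in edgeR (adjusted p = 0.275, and 0.133 to 0.633 over the alternatives) nor in DESeq2 (adjusted p = 0.141). Single libraries moved it by more than any scaling did: it stood at -0.46 without iKO 3 and at -0.92 without iKO 33. In the authors' deposited table Bcl2 had a log2 fold change of -0.58 (adjusted p = 0.136).

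Bcl2 lies on chromosome 1 (106538178 to 106714274, minus strand, mm10), and other genes there also had negative values. Of 672 tested genes of that chromosome 531 had a negative log2 fold change, with a median of -0.26. Over all 12672 tested genes 6189 were negative. Other chromosomes also leaned to a side, such as chromosome 13 (333 of 443 negative) and chromosome 8 (205 of 644 negative). Within 1 Mb of either end of Bcl2, 11 of 12 other tested genes were negative, with a median of -0.38. None of the 12 passed in edgeR, whereas DESeq2 called 2 (5.57% of all genes it tested). The same 2 had an unadjusted p under 0.05 in edgeR (15.0% of all tested genes). These were Zcchc2, a zinc finger gene, at -0.65 (SE 0.10, edgeR adjusted p = 0.0657, DESeq2 adjusted p = 6.02e-05) and the serpin gene Serpinb10 at -1.61 (SE 0.31, edgeR adjusted p = 0.101, DESeq2 adjusted p = 5.47e-05), both named after their values were seen. The gene closest to the Bcl2 start, Kdsr, stood at -0.063 (SE 0.16). Whether the regional values have a part in that of Bcl2 was not tested.

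**Figure D2:**
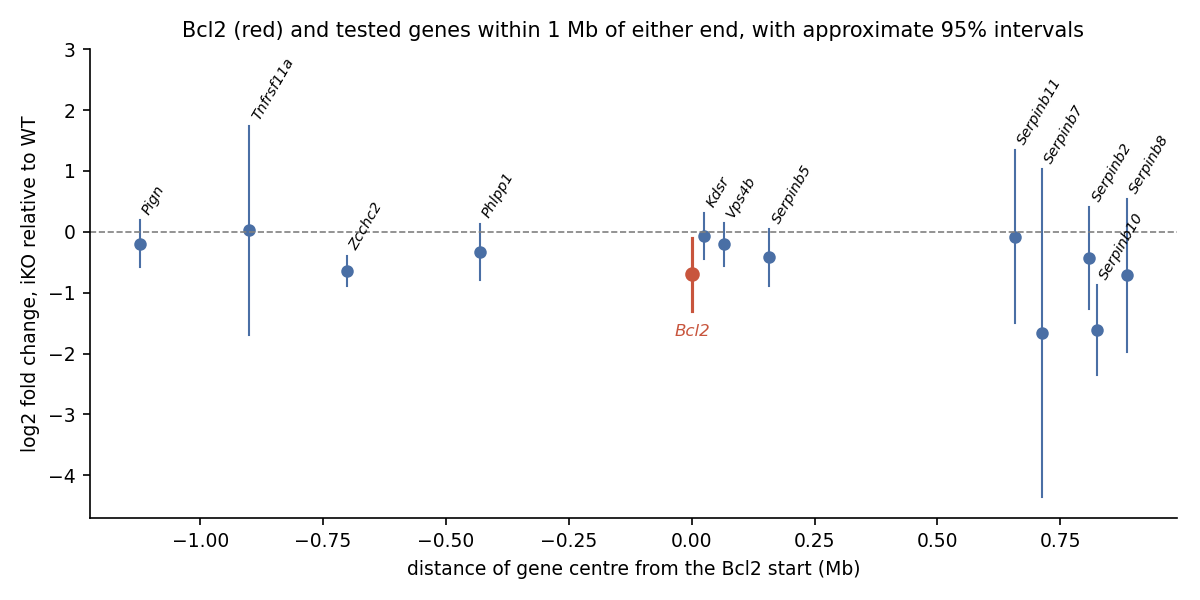
Log2 fold change of Bcl2 (red) and of 12 other tested genes within 1 Mb of either end (blue) against the distance of each gene's centre from the Bcl2 start in Mb, with approximate 95% intervals. Of the neighbours 11 lie below 0, and Kdsr, next to the start, stands at -0.063.

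The other survival genes had smaller log2 fold changes, and their groups overlapped. Mcl1, a short-lived survival protein's gene (chromosome 3, 95658788 to 95663176, plus strand), measured 251, 286 and 232 CPM in WT 2, 3 and 4 and 291, 249.8 and 307 CPM in iKO 3, 4 and 33. Libraries of both groups lay among each other, and the log2 fold change was 0.14 (SE 0.13, interval -0.17 to 0.45; edgeR adjusted p = 0.664). Bcl2l1 (chromosome 2, 152780668 to 152831728, minus strand) measured 121, 137 and 86.5 CPM against 116, 101 and 107 CPM in the same order. Here the libraries labelled WT spread across the whole iKO range, and the log2 fold change was -0.082 (SE 0.18, interval -0.50 to 0.33), with a sign that turned without WT 3 (0.065). These intervals leave room for changes of up to 1.36-fold in Mcl1 and a fall to 0.708-fold in Bcl2l1.

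The effectors Bax and Bak1, whose products form the pores, did not separate the groups. Bax (chromosome 7, 45461697 to 45466898, minus strand) measured 68.5, 82.6 and 69.7 CPM in WT 2, 3 and 4 and 68.3, 71.1 and 90.1 CPM in iKO 3, 4 and 33. In each group 2 libraries lay close together and the deepest one, WT 3 or iKO 33, stood above them. The log2 fold change of Bax was 0.056 (SE 0.15, interval -0.29 to 0.40), and it was -0.080 without iKO 33. Bak1 (chromosome 17, 27019810 to 27029009, minus strand) showed the opposite order of libraries, at 123, 72.4 and 102 CPM against 123, 123 and 93.6 CPM. Its lowest values fell in WT 3 and iKO 33, and its log2 fold change was 0.19 (SE 0.21, interval -0.31 to 0.69), or 0.0087 without WT 3.

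Of the BH3-only genes, Pmaip1 and Bid had the largest positive values, neither past the threshold. Pmaip1 (chromosome 18, 66458533 to 66465565, plus strand), whose product neutralises MCL1, measured 101, 153 and 107 CPM in WT 2, 3 and 4 and 141, 118 and 189 CPM in iKO 3, 4 and 33. The deepest library was again the highest of its group. The log2 fold change was 0.31 (SE 0.23, interval -0.23 to 0.84; edgeR adjusted p = 0.581), and it ranged from 0.10 without iKO 33 to 0.52 without WT 3. Bid (chromosome 6, 120891930 to 120916853, minus strand), whose product links death receptors and caspase-8 to mitochondria, measured 58.6, 40.8 and 62.0 CPM against 57.2, 70.9 and 70.0 CPM. Of these WT 3 was lowest, the other WT libraries overlapped iKO 3, and the log2 fold change was 0.30 (SE 0.18, interval -0.14 to 0.73; edgeR adjusted p = 0.502).

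The remaining BH3-only genes were expressed at low levels. Bbc3 (chromosome 7, 16308393 to 16318205, plus strand) measured 4.43, 4.31 and 5.15 CPM against 4.25, 4.27 and 6.54 CPM, with iKO 33 above the rest and a log2 fold change of 0.12 (SE 0.25, interval -0.47 to 0.71) that was -0.12 without iKO 33. Bcl2l11 (chromosome 2, 128126038 to 128162547, plus strand), the gene of the broad-acting BIM, had the widest spread, at 5.16, 3.77 and 10.2 CPM against 3.42, 8.67 and 8.38 CPM. Both groups held low and high libraries, so its interval of -1.03 to 1.23 around 0.10 excluded neither a fall to 0.491-fold nor a rise of 2.35-fold. Bik (chromosome 15, 83526862 to 83544634, plus strand) had 0, 1 and 1 counts in WT 2, 3 and 4 and 1, 3 and 3 counts in iKO 3, 4 and 33. The 2 and 7 counts per group gave a ratio of 2.95 with an exact 95% counting interval of 0.561 to 29.1, so no difference was detectable at this depth.

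**Figure D3:**
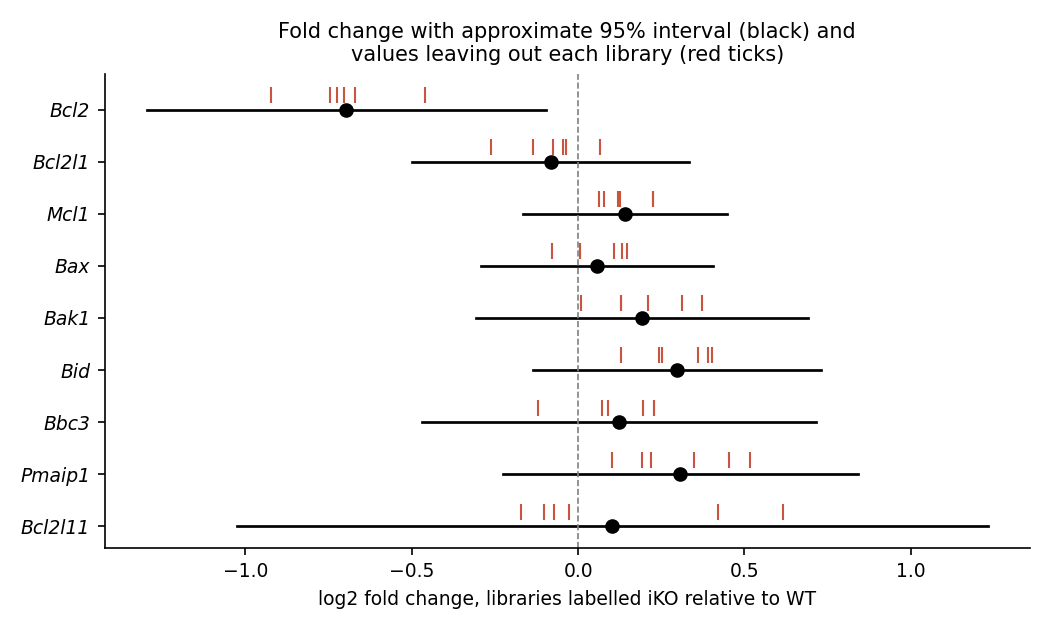
Log2 fold change of the 9 tested members (points) with approximate 95% intervals (black lines) and the values obtained when each library is left out in turn (red ticks). The interval of Bcl2, -1.30 to -0.10, is the only one of the 9 that does not include 0.

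The deepest library of each group stood apart in the same direction for several members. Among the 9 tested members, Mcl1, Bax and Pmaip1 were highest and Bak1 was lowest in both WT 3 and iKO 33. How often this holds over all tested genes was not counted, so it is not read as a trait of the members. For Pmaip1 the log2 CPM of the deepest library exceeded the mean of the other 2 by 0.56 under the WT label and by 0.55 under the iKO label, and for Bak1 it was lower, with differences of -0.63 and -0.40. For Bcl2l11 the differences had opposite signs, -0.94 and 0.62. With library depth as a block, an alternative chosen after these values were seen, Pmaip1 had a log2 fold change of 0.31 (SE 0.10, interval 0.058 to 0.56) and Bak1 one of 0.21 (SE 0.11, interval -0.063 to 0.48). Neither passed in edgeR with that block (adjusted p = 0.206 and 0.376, against ranges of 0.206 to 0.993 and 0.215 to 0.987 over all alternatives). Bcl2 stood at -0.72 (SE 0.25, adjusted p = 0.216) in the same fit.

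Levels of different genes were compared per length, as normalised CPM per kilobase of merged exons. On this scale the members fell into an abundant set and a scarce set. Mcl1 had the highest mean, at 75.0 ± 8.04 under the WT label and 82.7 ± 8.64 under the iKO label (SD, n = 3). Pmaip1 (44.1 ± 10.4 and 54.6 ± 13.2), Bax (46.7 ± 4.97 and 48.5 ± 7.54) and Bak1 (41.2 ± 10.5 and 47.0 ± 7.07) followed. Their ranges over the 6 libraries overlapped one another, and that of Pmaip1 reached into the range of Mcl1. Bcl2l1 (25.0 ± 5.61 and 23.6 ± 1.64) and Bid (15.2 ± 3.20 and 18.6 ± 2.16) came next and overlapped each other. Far below them lay Bbc3 (2.18 ± 0.214 and 2.36 ± 0.620), Bcl2 (1.80 ± 0.0782 and 1.11 ± 0.365) and Bcl2l11 (0.795 ± 0.422 and 0.850 ± 0.367), of which the last 2 overlapped, and Bik was lowest, at a mean of 0.0183 over all libraries.

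**Figure D4:**
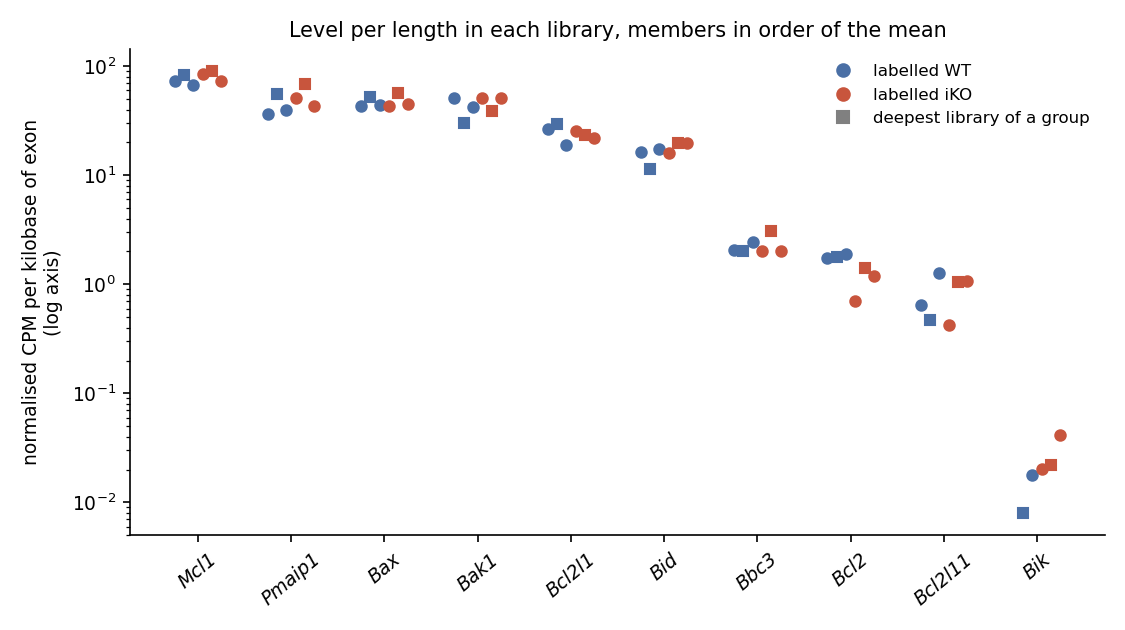
Normalised CPM per kilobase of merged exons (log axis) for each member in each library, ordered by the mean over 6 libraries, with squares for the deepest library of each group and the zero value of Bik in WT 2 left out. Mcl1 has the highest mean, between 67.9 and 89.8, and Bcl2 sits in the scarce set, between 0.709 and 1.88.

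The order depended little on the gene model, which the sources used here do not give for the counts. With the longest transcript as the length, Bax (68.2) moved above Pmaip1 (49.4), and Bak1 (44.5) and Bcl2l1 (43.4) came close together, while the other places were kept. By summed level per kilobase of merged exons of the 3 survival genes, Mcl1 made up 72.4% to 76.6% under the WT label and 75.8% to 78.4% under the iKO label. With the longest transcript as the length these shares were 59.9% to 65.3% and 64.1% to 67.3%, and that of Bcl2l1 was 32.4% to 38.3% and 31.3% to 34.6% in place of 21.3% to 25.9% and 20.4% to 22.9%. Bcl2 contributed 1.54% to 2.13% and 0.637% to 1.24% with merged exons. The ratio of Bax to Bcl2 per kilobase of merged exons was 25.1, 29.4 and 23.5 in WT 2, 3 and 4 and 61.1, 38.1 and 40.1 in iKO 3, 4 and 33. It was higher in all 3 libraries labelled iKO, in which Bcl2 was lower and Bax overlapped the WT range. The ratio is made from the Bcl2 values given above, so its separation is not a result apart from that of Bcl2. The summed level per kilobase of the survival genes overlapped between groups (88.6 to 115 and 96.4 to 115). That of the 2 effectors did not, but by a margin of 94.37 in WT 2 against 94.42 in iKO 3.

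RefSeq promoter windows (mm10, GRCm38.p6) were found for 8 members, 13 windows in all, and were searched because the targeted gene, Gata6, encodes a factor that binds GATA motifs. The 250 bases before each start were searched on both strands for GATA with A or T before it and A or G after it. A match was present in 2 of the 13 windows, 1 of Bcl2l1 and the 1 of Bid, and in 26.5% of all 32851 windows of the same length. The windows of Bcl2, the member with groups that do not overlap, and of Bid, with its match in capitals on the opposite strand, are shown 5′ to 3′ along each gene's own strand.
Bcl2 (chr1:106714291-106714540, minus strand): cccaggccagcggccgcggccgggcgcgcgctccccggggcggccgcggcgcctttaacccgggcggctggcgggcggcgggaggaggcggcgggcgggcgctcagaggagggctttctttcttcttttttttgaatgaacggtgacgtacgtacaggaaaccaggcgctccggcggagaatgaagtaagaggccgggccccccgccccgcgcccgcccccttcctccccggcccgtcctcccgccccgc
Bid (chr6:120916825-120917074, minus strand): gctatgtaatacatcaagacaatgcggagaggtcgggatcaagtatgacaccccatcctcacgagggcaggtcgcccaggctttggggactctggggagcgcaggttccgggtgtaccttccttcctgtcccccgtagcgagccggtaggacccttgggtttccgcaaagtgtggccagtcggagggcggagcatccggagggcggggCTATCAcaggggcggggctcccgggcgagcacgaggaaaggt
A match describes the letters only, and these libraries do not measure binding. The Bcl2 window was 74.8% G and C, against a median of 52.4% over all windows.

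The counts for the lists that follow stand beside 15.0% of all tested genes at an unadjusted p under 0.05 in edgeR, 21.9% with groups that do not overlap and 5.57% called by DESeq2. In the rest of the family, too, no gene passed. Of 15 further family genes 9 were tested, 5 with positive and 4 with negative log2 fold changes (median 0.024). DESeq2 called none either, none had an unadjusted p under 0.05, and 1, Bcl2l12, had groups that did not overlap. Its margin was narrow, at 5.445 CPM in WT 3 against 5.444 CPM in iKO 4. The smallest p-values belonged to Bmf, a BH3-only gene linked to loss of cell attachment (1.05, SE 0.47, at no more than 1.40 CPM in any library), Bok, a BAX-like effector (-0.46, SE 0.22), Bcl2l12 (-0.46, SE 0.22) and Bcl2l13 (-0.17, SE 0.13). The 3 tabulated Bcl2a1 copies, genes usually expressed in blood cells, had no count in any library.

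Downstream of mitochondria, 17 genes of the apoptosome, mitochondrial factors and caspases were all tested, 7 positive and 10 negative (median -0.060). None passed in edgeR. An unadjusted p under 0.05 was seen for 3 of the 17 (15.0% of all tested genes), all lower, of which DESeq2 called 1 (5.57% of all genes), so both counts lay near the background. The called gene was Htra2, a mitochondrial protease released in apoptosis, at 24.9 ± 1.99 against 17.9 ± 1.42 CPM (SD, n = 3; log2 fold change -0.47, SE 0.13; adjusted p = 0.178 in edgeR and 0.0436 in DESeq2). Aifm1, a mitochondrial flavoprotein gene, stood at -0.37 (SE 0.13), the DNase gene Dffb at -0.50 (SE 0.21) and the caspase gene Casp2 at -0.35 (SE 0.15). Casp9, which encodes the caspase that the apoptosome activates, stood at 0.13 (SE 0.21) and was named after its value was seen.

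Among 6 inhibitors of apoptosis, 1 had a positive and 5 a negative value (median -0.089), and none passed in edgeR. Only Birc3, which encodes an E3 ubiquitin ligase of the NF-κB pathway, had an unadjusted p under 0.05, with values of 0.823 to 1.52 CPM against 0.0959 to 0.424 CPM, and it was the 1 gene of the list called by DESeq2 (adjusted p = 0.0103). Naip2 (0.48, SE 0.44), Birc5 (-0.11, SE 0.15) and Birc6 (-0.10, SE 0.16) followed. Of 11 death receptor genes 9 were tested, 5 positive and 4 negative (median 0.13), with 0 called in edgeR or DESeq2 and 1 at an unadjusted p under 0.05. This was Tradd, an adaptor of the TNF receptor, at 34.1 ± 3.25 against 44.9 ± 4.59 CPM, a log2 fold change of 0.40 (SE 0.13) with an adjusted p of 0.237 in edgeR. The TRAIL receptor gene Tnfrsf10b stood at 0.36 (SE 0.18), the kinase gene Ripk1 at -0.21 (SE 0.12) and the death receptor gene Fas at -0.82 (SE 0.52).

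**Figure D5:**
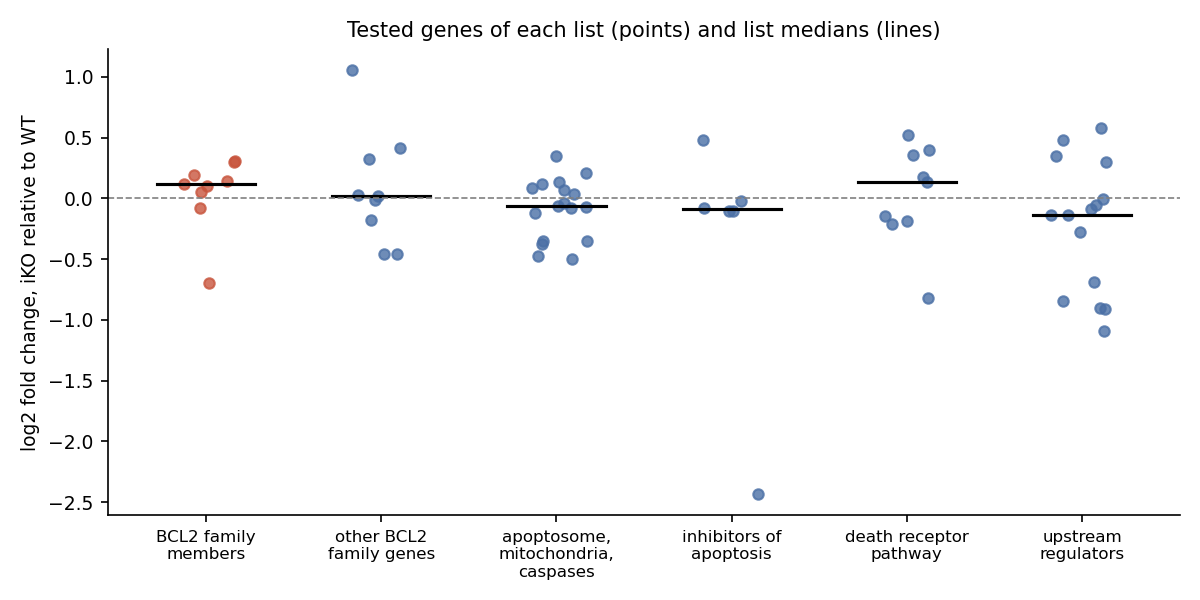
Log2 fold change (vertical axis) of the tested BCL2 family members (red points) and of the tested genes of 5 related lists (blue points), with each list's median as a black line. The medians lie between -0.13 and 0.13, and the lowest point, in the inhibitors of apoptosis, is Birc3 at -2.43.

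The last list holds genes upstream of the family. Of 16 listed regulators 15 were tested, 4 positive and 11 negative (median -0.13). None passed in edgeR at 0.05. Of the 15, 6 had an unadjusted p under 0.05 (15.0% of all tested genes), 6 had groups that did not overlap (21.9%), and DESeq2 called 5 (5.57%). Trp63, the p63 gene of basal keratinocytes, stood at -0.68 (SE 0.10, edgeR adjusted p = 0.0529) and E2f1, an S phase factor that can induce BH3-only genes, at -0.90 (SE 0.14, edgeR adjusted p = 0.0622). Foxo3, whose product can activate Bcl2l11 and Bbc3, measured 51.6 ± 0.426 against 71.8 ± 6.06 CPM (SD, n = 3; log2 fold change 0.48, SE 0.11), and Mdm2, whose product marks p53 for degradation, 100.04 ± 10.7 against 149 ± 17.0 CPM (0.58, SE 0.13). Foxo1, of the same factor family as Foxo3, had the opposite sign, at 53.8 ± 11.02 against 29.9 ± 6.06 CPM. Its log2 fold change was -0.85 (SE 0.21), with an adjusted p of 0.154 in edgeR and 0.0135 in DESeq2. These 5 genes are those that DESeq2 called. Trp53 itself stood at -0.13 (SE 0.18) and its apoptotic targets Bbc3 and Pmaip1 at 0.12 and 0.31, as above. Huwe1, an MCL1 ubiquitin ligase gene, had a value of -0.085 (SE 0.12), and Usp9x, an MCL1 deubiquitinase gene, one of 0.30 (SE 0.16). Like Foxo1 and Trp53, these were named outside the rule, after their values were seen.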

How the data were processed

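Libraries were made with TruSeq RNA v2 from total RNA, per the labels' protocols. TopHat2, HTSeq, DESeq and DESeq2 (no versions) and mm10 appear in the submitters' processing notes, with annotation and strand setting not given in the sources used here. One deposited table holds raw read counts per gene symbol; its 5 HTSeq summary rows were left out. They held 34.8% to 35.5% of counts under the WT label and 27.4% to 32.0% under the iKO label, mostly reads without a unique position (29.5% to 30.5% and 21.7% to 26.5%), a difference whose part in the results was not tested. The authors' deposited DESeq2 table holds a mean normalised signal, log2 fold changes with SE, a Wald score and p-values.

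Counts were tested in R 4.3.3 with edgeR 4.0.16: filterByExpr (minimum count 10), TMM scaling, glmQLFit and glmQLFTest (robust, group as the only term), two-sided, Benjamini-Hochberg over all 12672 tested genes at 0.05. The approximate SE, on which intervals rest, is the size of the log2 fold change over the root of F. Log2 CPM uses a prior count of 2. DESeq2 1.42.0 and limma 3.58.1 were alternatives. On counts simulated from these libraries edgeR called 56 of 100 genes changed 2-fold and 98 of 100 changed 4-fold, with 12 false calls among 12537 tested genes. On the same counts limma-voom called 58 and 98, with 12 false calls. DESeq2 called 81 and 99, but with 53 false calls among 12672 genes. Genes called by DESeq2 alone are to be read with this larger number of false calls in mind. The changed genes were drawn only from those above a cut on mean CPM. These rates therefore do not cover weakly expressed genes such as Bbc3 and Bmf. No pair of libraries in a group agreed within sampling noise (chi-square per degree of freedom at least 48.6). Positions and lengths are from GENCODE on mm10.

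Members and lists were chosen with earlier results of these data known. Named genes are the members and, per list, the 4 with the smallest p. The iKO column numbered 33 matches no title and served as a replicate without a number of its own. The title iKO2 in turn matches no column. The labels do not say whether column 33 is that sample or a further library of another one. Intervals on counts cover counting error only. Some genes of the lists are not reported here by name.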

Additional observations from a re-analysis of the deposited data

How the results depend on the processing

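The number of members past the threshold was 0 under every alternative run, and the signs of Bcl2, Mcl1, Bak1 and Bid held in all 16 alternatives with a fold change. The numbers 3 and 4 are the only ones that columns of both groups carry. The difference between 3 and 4 under the WT label correlated across genes with that under the iKO label (0.60). With only 2 pairs this cannot decide whether numbers mark shared samples. With a replicate block on these 4 libraries Bcl2 stood at -0.995 and 103 genes passed; Bax (-0.12), Bbc3 (-0.14) and Bcl2l11 (-0.19) turned negative. Without the block 4 genes passed, and Bax (-0.13), Bbc3 (-0.15), Pmaip1 (-0.012) and Bcl2l11 (-0.20) were negative. Leaving out each library gave 7 to 31 genes past the threshold, against 43, and ranges of -0.26 to 0.065 for Bcl2l1, -0.080 to 0.15 for Bax, -0.12 to 0.23 for Bbc3 and -0.17 to 0.61 for Bcl2l11; the cause was not tested. In all, 76 genes passed with no filter, 757 in DESeq2 and 152 at an adjusted p of 0.10. Of the upstream regulators 2 passed with no filter, 5 in DESeq2, 1 in limma-voom and 2 at 0.10, and DESeq2 called 1 apoptosome gene and 1 inhibitor of apoptosis. Levels per kilobase moved by more than 1 SD for 4 of 10 members with the longest transcript, and for none when a library was left out. Bik, at 0 to 3 counts per library, could not be judged at this depth.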
